A study of Mus musculus with 59 samples.

Results

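These are the 10 genes Cbfa2t3, Zfp366, Tnfrsf25, Gadd45a, Fam53b, Nrde2, Lcmt2, Lrrc29, Atp10d and Slit1, taken from the 18088 genes measured in mouse prefrontal cortex. They were chosen by measured values, for a strong difference of fluoxetine from vehicle averaged over both genotypes and both sexes. All 10 reached the level needed for testing, as did 17875 genes in all. The fluoxetine averages therefore describe the choice and are given without a test.

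The tissue came from C57BL/6J mice at postnatal day 25, whose mothers' milk had carried fluoxetine, lithium or vehicle to them between days 3 and 24. Mice heterozygous for Ash1l (HT), a gene for a histone methyltransferase, were compared with wild-type mice (WT), females and males alike, and the nature of the Ash1l allele is not given in the sources used here. Each of the 12 groups of genotype, drug and sex had 5 libraries, except HT lithium females with 4, which makes 20 fluoxetine, 19 lithium and 20 vehicle libraries. The labels name no litter or dam. As the drugs passed through the dam, litter and treatment cannot be told apart, and every p-value here reflects the spread between libraries, which may be that between littermates. Values are normalised read counts, that is, reads divided by the library's size factor.

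Fluoxetine blocks the serotonin transporter and so prolongs the action of serotonin at synapses. Lithium is a mood stabiliser that inhibits glycogen synthase kinase and inositol phosphatases. The members lower under fluoxetine are known from gene repression, receptor signalling and stress response, and those higher under it from RNA, ubiquitin and lipid handling and from axon guidance.

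The libraries held 24.5 to 36.3 M reads, with medians of 29.2 M for fluoxetine, 27.7 M for lithium and 27.4 M for vehicle. A member had between 19 reads, for Lrrc29, and 2816 reads, for Slit1, in a library. Ash1l lay between 3641 and 4382 normalised counts in the 29 HT libraries and between 3557 and 6218 in the 30 WT libraries, and the library labelled WT vehicle female replicate 3 gave the WT minimum. The medians were 4021 in HT and 5030 in WT, and the lowest count in any WT group other than vehicle females was 4703. All 10 cortical neuron markers looked for were measured, and their summed count was 120300 to 197800 under fluoxetine, 126000 to 183100 under lithium and 94760 to 189100 under vehicle. The RNA came from whole tissue, in which fewer cells of a type and less RNA per cell cannot be told apart.

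Several libraries stood apart from their labels' groups over the rest of the genes. For each fluoxetine library, its difference from the vehicle mean of its genotype and sex was regressed on the mean fluoxetine difference of the other 3 strata, over the 17865 tested genes that are not members. The slope was 0.496 and 0.528 in HT fluoxetine female replicates 1 and 2, but -0.052, -0.172 and -0.073 in replicates 3, 4 and 5. It was 0.13 to 0.874 in the other 15 fluoxetine libraries. The same measure for lithium was -0.538 and -0.416 in WT lithium female replicates 1 and 2, 0.021 to 0.238 in the other 3 libraries of that group, and 0.288 to 0.769 in the other lithium libraries. Drug averages, differences within HT females or WT females and counts of separated groups are therefore given with and without them. They were picked for lacking the drug difference of the other strata, so leaving them out in itself favours larger and more alike differences. The HT fluoxetine females then rest on replicates 1 and 2 alone.

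**Figure D1:**
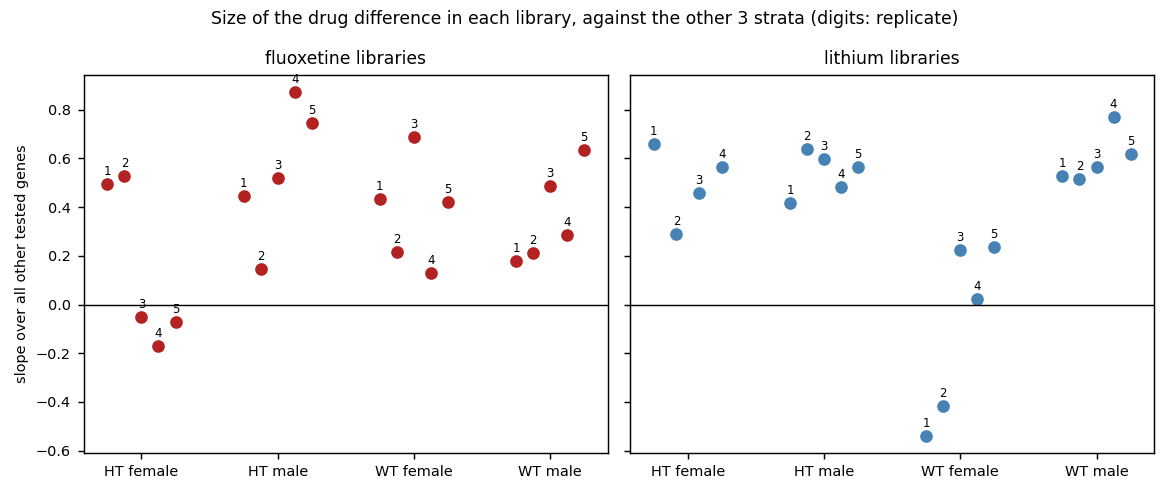
Slope of each drug library's difference from vehicle on the mean difference of the other 3 strata, over 17865 genes that are not members (y axis, no unit), by genotype and sex (x axis); each point is 1 library and the digit its replicate. HT fluoxetine female replicates 3, 4 and 5 lie below 0, as do WT lithium female replicates 1 and 2.

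Promoter sequence was held for 6 members in RefSeq's mouse annotation (GRCm38.p6), as 10 windows of 250 bases before a start of transcription. The windows below are shown for members of both directions, those lower under fluoxetine first, because they are the stretches in which short motifs shared with other genes were searched on both strands. Capitals mark a GC box (GGGCGG), a glucocorticoid response core (AGAACA), an Egr core (GCGTGGG) or the reverse complement of one of these. Cbfa2t3 has 2 annotated starts, at chr8:122699110-122699359 and chr8:122678176-122678425 on the minus strand. The first of 2 Tnfrsf25 windows is chr4:152115684-152115933 on the plus strand, and the others shown, on the minus strand, are chr6:67037408-67037657 for Gadd45a, chr12:100159650-100159899 for Nrde2 and chr2:121140699-121140948 for Lcmt2. The second Tnfrsf25 window, chr4:152116093-152116342, and the Fam53b windows are not shown. The second windows of Tnfrsf25 and Fam53b held none of the motifs searched, so every window shown has a match.
Cbfa2t3 first start: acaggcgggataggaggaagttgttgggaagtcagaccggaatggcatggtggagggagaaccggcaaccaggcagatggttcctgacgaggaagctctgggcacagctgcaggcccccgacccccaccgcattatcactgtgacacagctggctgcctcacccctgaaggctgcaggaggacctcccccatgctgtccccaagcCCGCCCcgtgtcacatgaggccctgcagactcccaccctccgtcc
Cbfa2t3 second start: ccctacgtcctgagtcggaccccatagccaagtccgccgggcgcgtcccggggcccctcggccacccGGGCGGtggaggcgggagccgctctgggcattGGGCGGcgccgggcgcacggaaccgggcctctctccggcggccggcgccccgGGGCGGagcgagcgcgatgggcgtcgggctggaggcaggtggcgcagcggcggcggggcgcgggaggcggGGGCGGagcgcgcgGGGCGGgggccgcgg
Tnfrsf25: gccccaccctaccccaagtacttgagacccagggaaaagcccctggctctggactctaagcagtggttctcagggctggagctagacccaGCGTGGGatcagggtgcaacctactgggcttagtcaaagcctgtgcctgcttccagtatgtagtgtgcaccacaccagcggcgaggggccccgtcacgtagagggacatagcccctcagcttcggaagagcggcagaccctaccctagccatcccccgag
Gadd45a: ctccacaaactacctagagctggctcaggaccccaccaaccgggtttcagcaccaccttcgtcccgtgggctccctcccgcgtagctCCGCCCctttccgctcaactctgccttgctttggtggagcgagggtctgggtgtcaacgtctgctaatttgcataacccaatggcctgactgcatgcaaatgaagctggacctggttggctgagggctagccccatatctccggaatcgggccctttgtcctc
Nrde2: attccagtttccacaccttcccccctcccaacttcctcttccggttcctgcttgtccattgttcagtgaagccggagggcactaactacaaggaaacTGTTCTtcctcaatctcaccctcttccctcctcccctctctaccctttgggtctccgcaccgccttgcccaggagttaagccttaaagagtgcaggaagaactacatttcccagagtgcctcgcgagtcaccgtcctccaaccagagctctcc
Lcmt2: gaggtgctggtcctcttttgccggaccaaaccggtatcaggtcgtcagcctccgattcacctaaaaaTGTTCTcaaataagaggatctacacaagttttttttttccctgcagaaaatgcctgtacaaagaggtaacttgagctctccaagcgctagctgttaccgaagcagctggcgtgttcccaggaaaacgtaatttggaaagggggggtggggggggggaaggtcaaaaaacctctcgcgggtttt

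The GC box was in 5 of the 10 member windows, against 32.7% of the 32851 mouse promoter windows of that length. The second Cbfa2t3 window held 5 copies, and its GC content was 83.2%, against a median of 52.4% over all windows. The glucocorticoid response core was in 3 member windows, against 16.1% of all windows: those of Nrde2, Lcmt2 and the third start of Fam53b. The Egr core stood in the Tnfrsf25 window shown, against 4.3% of all. No member window held an E-box (CACGTG, 6.02% of all windows), the core of a cyclic AMP response element (TGACGT, 6.47%), an AP-1 site (TGANTCA, 6.75%) or a TATA box (TATAAA, 12.4%). A match to letters is a description of these windows and not of binding.

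Among the genes lower under fluoxetine, Cbfa2t3 ranked first of all tested genes in the comparison that chose it. Cbfa2t3 (ENSMUSG00000006362, chromosome 8, 122625141 to 122699109, minus strand, GRCm38) encodes a corepressor that brings histone deacetylases to DNA-bound factors and is best known from blood formation. In HT males, Cbfa2t3 had 613, 714, 681, 644 and 742 normalised counts under fluoxetine, 917, 921, 1022, 918 and 1033 under lithium and 1044, 1247, 1127, 962 and 1075 under vehicle. In WT females, Cbfa2t3 had 651, 669, 608, 519 and 663 under fluoxetine, 825, 853, 985, 943 and 844 under lithium and 1052, 1109, 1024, 1154 and 1231 under vehicle. In WT males, Cbfa2t3 had 789, 662, 669, 799 and 586 under fluoxetine, 978, 864, 1331, 1171 and 898 under lithium and 967, 1060, 889, 914 and 1067 under vehicle. In these 3 strata every fluoxetine library lay below every vehicle and every lithium library. In HT females, Cbfa2t3 had 652, 668, 1148, 965 and 968 under fluoxetine, 1288, 1079, 1136 and 1259 under lithium and 1245, 993, 1107, 966 and 1120 under vehicle. Replicates 1 and 2 of that fluoxetine group matched the low values of the other strata, and replicates 3, 4 and 5 lay within or near the vehicle range. The average log2 difference was -0.59 ± 0.054 for fluoxetine (standard error, as for every log2 difference here), and -0.68 without HT fluoxetine female replicates 3 to 5.

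Zfp366 (ENSMUSG00000050919, chromosome 13, 99184823 to 99250656, plus strand) encodes a zinc finger protein that marks dendritic cells and acts as a coregulator of nuclear receptors. In HT males, Zfp366 had 281, 342, 230.3, 167 and 214 normalised counts under fluoxetine, 283, 331, 309, 262 and 238 under lithium and 359, 344, 478, 458 and 393 under vehicle. In WT females, Zfp366 had 299.6, 279, 225, 212 and 243 under fluoxetine, 336, 363, 382, 350.5 and 324 under lithium and 427, 405, 535, 451 and 446 under vehicle. In WT males, Zfp366 had 364, 321, 284, 305 and 236 under fluoxetine, 354, 309, 298, 370.4 and 332 under lithium and 499, 499.6, 392, 446 and 503 under vehicle. Fluoxetine libraries lay below every vehicle library in these 3 strata, and so did the lithium libraries. In HT females, Zfp366 had 249, 313, 429, 377 and 437 under fluoxetine, 356, 386, 333 and 340.2 under lithium and 379.5, 381, 449, 449.8 and 429 under vehicle, and both drug groups overlapped vehicle. The fluoxetine average was -0.62 ± 0.066 on the log2 scale, and -0.70 without HT fluoxetine female replicates 3 to 5.

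Tnfrsf25 (ENSMUSG00000024793, chromosome 4, 152115934 to 152120119, plus strand) encodes a death-domain receptor of the tumour necrosis factor family, whose ligand is the product of Tnfsf15. In HT males, Tnfrsf25 had 80.0, 123, 98.3, 47.6 and 77.7 normalised counts under fluoxetine, 129, 152, 174, 146 and 136 under lithium and 193, 124, 187, 131 and 174 under vehicle. In WT females, Tnfrsf25 had 107, 58.9, 77.3, 44.2 and 74.1 under fluoxetine, 113, 165, 147, 169 and 188 under lithium and 222, 242, 239, 263 and 194 under vehicle. In WT males, Tnfrsf25 had 84.5, 111, 87.1, 91.3 and 70.6 under fluoxetine, 209.7, 169.6, 204, 188 and 175 under lithium and 169, 145, 177, 183 and 245 under vehicle. Again no fluoxetine library reached a vehicle library in these 3 strata. In HT females, Tnfrsf25 had 77.0, 97.3, 283, 209 and 251 under fluoxetine, 238, 206, 228 and 160 under lithium and 215, 139.8, 164, 128 and 176 under vehicle. There the fluoxetine group split, with replicates 1 and 2 below all vehicle libraries and replicates 3 and 5 above all of them. The average was -0.93 ± 0.115 for fluoxetine, the largest of the 10 in size, and -1.15 without HT fluoxetine female replicates 3 to 5.

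Gadd45a (ENSMUSG00000036390, chromosome 6, 67035096 to 67037457, minus strand) is a growth arrest and DNA damage gene that p53 induces, and its protein binds a kinase upstream of the stress kinases p38 and JNK. In HT males, Gadd45a had 89.0, 106, 107, 79.7 and 105 normalised counts under fluoxetine and 191, 186, 139, 144 and 149 under vehicle. In WT females, Gadd45a had 104, 98.4, 106, 86.0 and 105 under fluoxetine and 125, 158, 206, 169 and 196 under vehicle. These groups did not overlap. In WT males, Gadd45a had 114, 104, 86.0, 118 and 126 under fluoxetine and 119, 206, 146, 161 and 171 under vehicle, where the lowest vehicle library lay inside the fluoxetine range. In HT females, Gadd45a had 149, 123, 143, 154 and 118 under fluoxetine and 187, 146, 146, 128 and 177 under vehicle, again with overlap. All 20 fluoxetine libraries were nevertheless below the vehicle mean of their own genotype and sex, and the average of -0.55 ± 0.072 was the same to 2 decimals without HT fluoxetine female replicates 3 to 5.

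Fam53b (ENSMUSG00000030956, chromosome 7, 132712082 to 132813886, minus strand) is known from fish, where its product is needed for nuclear localisation of beta-catenin in Wnt signalling. In HT females, Fam53b had 788, 761, 1036, 817 and 782 normalised counts under fluoxetine, 1370, 1125, 1380 and 1288 under lithium and 1020, 1017, 1134, 994 and 1025 under vehicle. In HT males, Fam53b had 773, 787, 730.1, 766 and 812 under fluoxetine, 1264, 1145, 1135, 1195 and 1176 under lithium and 987, 1236, 1269, 1174 and 1055 under vehicle. Both HT strata thus placed the fluoxetine libraries low, with only replicate 3 of the HT females inside the vehicle range. In WT females, Fam53b had 774, 784, 780.1, 641 and 728 under fluoxetine, 951, 1161, 1058, 1047 and 970.4 under lithium and 919.7, 1036, 936, 1240 and 1286 under vehicle. In WT males, Fam53b had 842, 882, 663, 919 and 712 under fluoxetine, 1164, 1157, 1396, 1463 and 1030 under lithium and 1105, 711, 861, 854 and 1118 under vehicle. In WT males the fluoxetine libraries overlapped vehicle, while in all 4 strata they lay below every lithium library. The fluoxetine average was -0.40 ± 0.051, and -0.43 without HT fluoxetine female replicates 3 to 5.

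Of the genes higher under fluoxetine, Nrde2 had a narrow spread under vehicle, 348 ± 18.6 normalised counts (SD, n = 20). Nrde2 (ENSMUSG00000021179, chromosome 12, 100125452 to 100159653, minus strand) encodes a nuclear protein that binds the helicase Mtrex and restrains RNA decay by the nuclear exosome. Nrde2 had 344 to 527 normalised counts over the 20 fluoxetine libraries (median 451), 345 to 437 over the 19 lithium libraries (median 382.5) and 303.5 to 376 over the 20 vehicle libraries (median 349). In HT females, Nrde2 had 460.2, 424, 364, 344 and 392 under fluoxetine and 347, 304, 353, 332 and 336 under vehicle. All 20 fluoxetine libraries were above the vehicle mean of their stratum, and the groups overlapped only in HT females, through replicate 4. The average was 0.34 ± 0.037 for fluoxetine, and 0.38 without HT fluoxetine female replicates 3 to 5.

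Lcmt2 (ENSMUSG00000074890, chromosome 2, 121128307 to 121140653, minus strand) encodes the enzyme of the last steps of wybutosine synthesis, a modified base beside the anticodon of phenylalanine transfer RNA. In WT females, Lcmt2 had 213, 219, 192, 218 and 221 normalised counts under fluoxetine and 145, 150.1, 132, 137 and 144 under vehicle. In WT males, Lcmt2 had 166, 178, 189.5, 194 and 199 under fluoxetine, 184, 146, 183, 152 and 191 under lithium and 135, 112, 136, 137 and 104 under vehicle. In both WT strata fluoxetine stood clear of vehicle, and in WT males lithium did too. In HT males, Lcmt2 had 188, 171, 198, 207 and 222 under fluoxetine and 143, 169, 156, 126 and 147 under vehicle, also without overlap. In HT females, Lcmt2 had 173, 186, 138, 128 and 139.9 under fluoxetine and 145, 127, 172, 146 and 138 under vehicle, and replicates 3, 4 and 5 lay inside the vehicle range. The average was 0.41 ± 0.051 for fluoxetine, and 0.47 without those 3 libraries.

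Lrrc29 (ENSMUSG00000041679, chromosome 8, 105312265 to 105326278, minus strand) encodes a leucine-rich repeat protein, and its human counterpart is classed as an F-box protein, the substrate-binding part of a ubiquitin ligase. Its counts were low. In HT males, Lrrc29 had 45.0, 49.6, 64.6, 87.5 and 62.4 normalised counts under fluoxetine, 42.6, 33.7, 32.5, 38.0 and 39.1 under lithium and 33.7, 20.8, 25.9, 28.3 and 27.6 under vehicle. In WT females, Lrrc29 had 56.4, 64.4, 67.7, 54.9 and 63.2 under fluoxetine, 40.0, 21.8, 35.7, 28.5 and 38.2 under lithium and 47.0, 30.2, 43.3, 36.2 and 34.2 under vehicle. Fluoxetine lay above all lithium and vehicle libraries in these 2 strata. In WT males, Lrrc29 had 38.7, 43.3, 40.3, 36.1 and 59.5 under fluoxetine and 31.2, 23.5, 33.1, 28.7 and 30.0 under vehicle, without overlap. In HT females, Lrrc29 had 65.9, 53.6, 23.8, 28.1 and 35.0 under fluoxetine and 29.6, 28.8, 27.3, 29.6 and 24.2 under vehicle, with replicates 1, 2 and 5 above vehicle and replicate 3 below it. The average was 0.70 ± 0.094 for fluoxetine, and 0.86 without HT fluoxetine female replicates 3 to 5.

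Atp10d (ENSMUSG00000046808, chromosome 5, 72203329 to 72298775, plus strand) belongs to the P-type ATPases that flip phospholipids across membranes, and GENCODE M21 types the mouse gene as a polymorphic pseudogene. In HT males, Atp10d had 154, 133, 195, 166 and 199 normalised counts under fluoxetine and 126, 111, 107, 117 and 107 under vehicle. In WT females, Atp10d had 169, 199.6, 185, 165 and 197 under fluoxetine and 131, 124, 158, 105 and 106 under vehicle. Neither pair of groups overlapped. In WT males, Atp10d had 144, 166, 185, 160.3 and 187 under fluoxetine and 117, 135, 115, 151 and 136 under vehicle, where the ranges overlapped. In HT females, Atp10d had 150, 146, 108, 127 and 107 under fluoxetine and 118, 115, 132, 122 and 108 under vehicle, and only replicates 1 and 2 exceeded vehicle. Lithium libraries ranged from 94.3 to 153.5 (median 115), inside or just below the vehicle range of 105 to 158 (median 118). The average was 0.39 ± 0.059 for fluoxetine, and 0.45 without HT fluoxetine female replicates 3 to 5.

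Slit1 (ENSMUSG00000025020, chromosome 19, 41600257 to 41743665, minus strand) encodes a secreted guidance protein that repels growing axons through Robo receptors. In HT females, Slit1 had 2320, 2222, 1801, 1642 and 2047 normalised counts under fluoxetine, 1915, 2047, 2081 and 2094 under lithium and 1478, 1651, 1622, 1268 and 1609 under vehicle. In HT males, Slit1 had 1871, 1766, 2170, 3118 and 2842 under fluoxetine, 1886, 2066, 2405, 1995 and 2120 under lithium and 1905, 1914, 1429, 1703 and 1798 under vehicle. In the HT mice lithium stood clear of vehicle in females only, and fluoxetine overlapped vehicle in both sexes. In WT females, Slit1 had 2019, 2040, 2494, 1958 and 2048 under fluoxetine, 1541, 1642, 1956, 1911 and 2061 under lithium and 1374, 1736, 1195, 1566 and 1838 under vehicle. In WT males, Slit1 had 1894, 1560, 1724, 1821 and 2110 under fluoxetine, 2161, 2183, 2250, 1999 and 1999 under lithium and 1493, 1369, 1653, 1789 and 1531 under vehicle. Fluoxetine cleared vehicle in WT females and lithium did in WT males. The average was 0.37 ± 0.057 for fluoxetine, and 0.42 without HT fluoxetine female replicates 3 to 5.

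**Figure D2:**
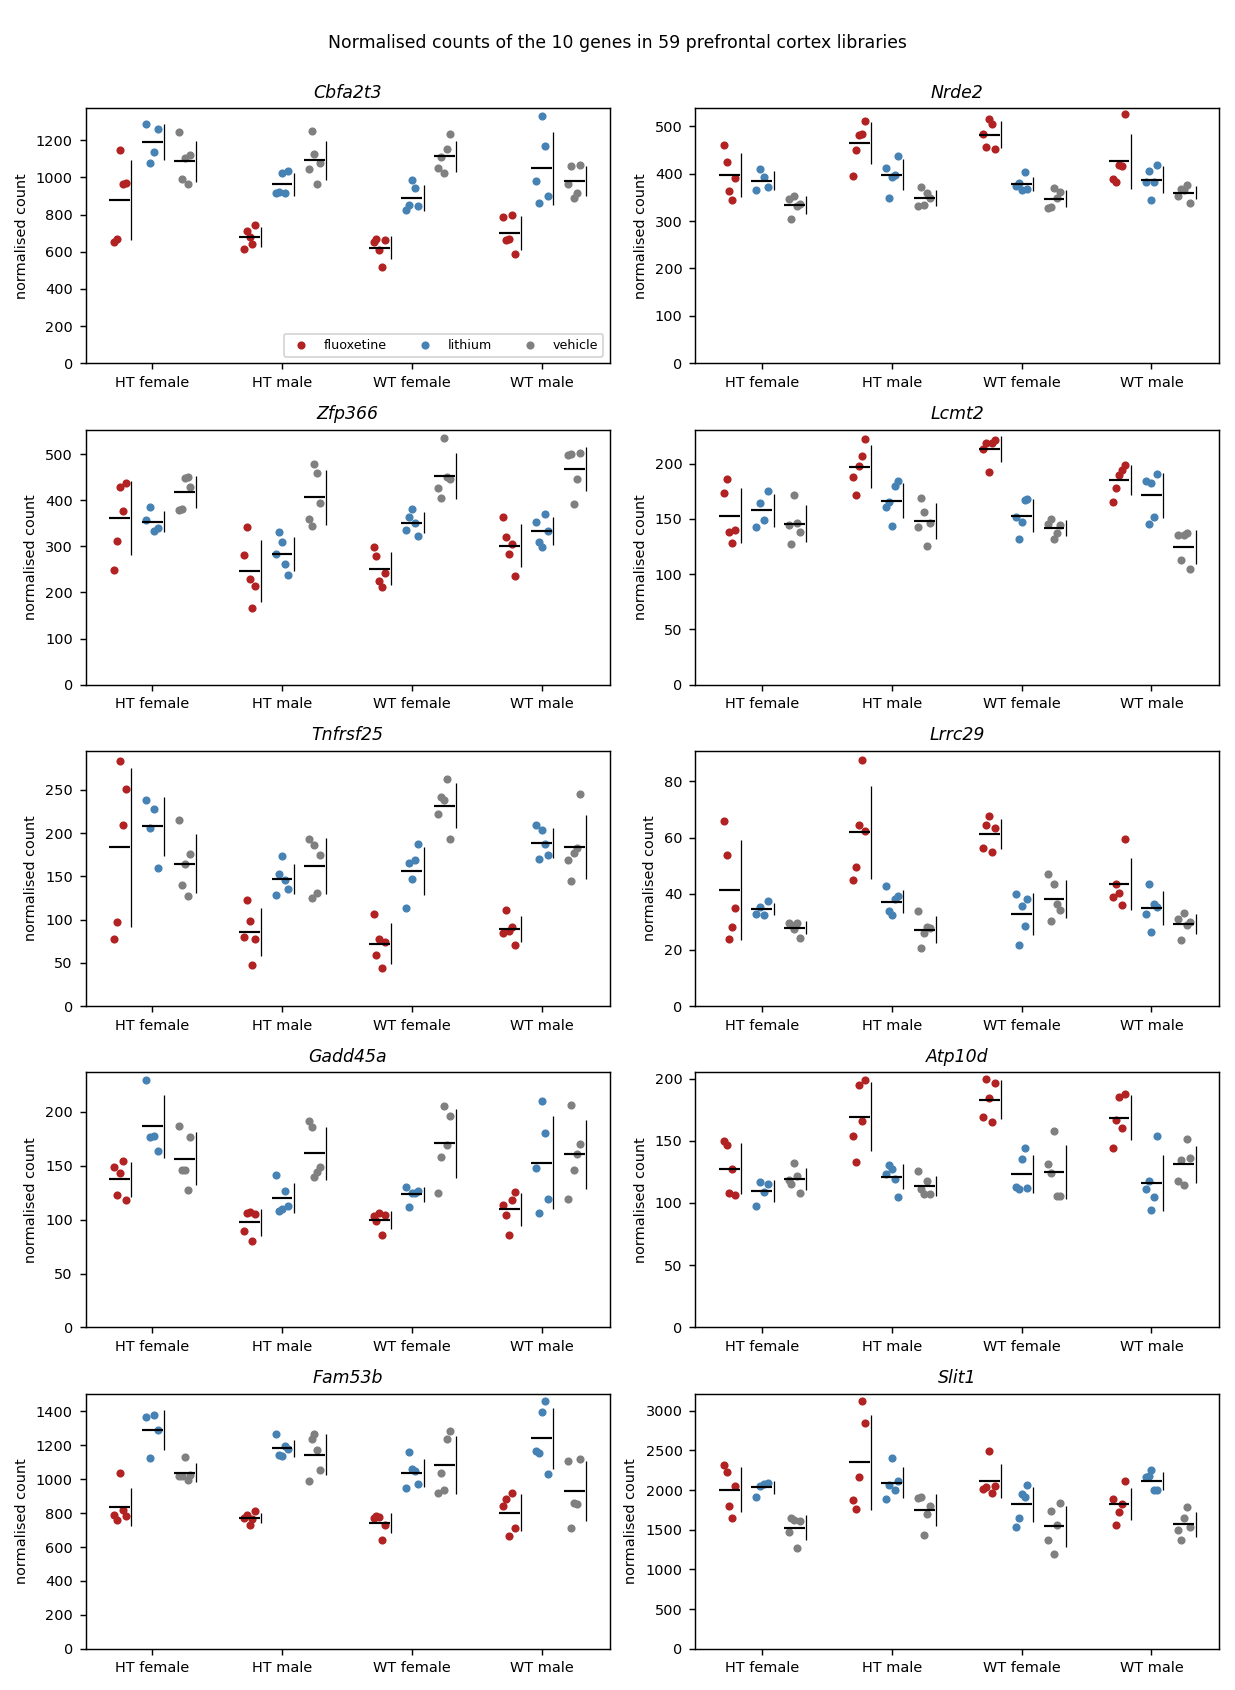
Normalised count (y axis) of each member in 59 libraries, by genotype and sex (x axis) with fluoxetine, lithium and vehicle from left to right; points are libraries, horizontal bars group means and vertical bars 1 standard deviation. In HT females the fluoxetine points of Cbfa2t3, Zfp366 and Tnfrsf25 fall into a low pair and 3 values near vehicle or, for Tnfrsf25, up to 283.

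By genotype and sex, the fluoxetine differences were described as separation between groups. In WT females all 10 members had fluoxetine and vehicle groups that did not overlap, where 4.78% of all tested genes did so. In HT males 9 did, all but Slit1 (5.96% of all genes), in WT males 6 (3.94%), and in HT females none (1.07%). With only replicates 1 and 2 of the HT fluoxetine females, 9 members stood clear of vehicle there, all but Gadd45a, where 10.5% of all genes did. The WT male members were Cbfa2t3, Zfp366 and Tnfrsf25, lower, and Nrde2, Lcmt2 and Lrrc29, higher. These counts use the contrast that chose the genes and carry no further weight. Over all genes, 2420 of 17875 passed for the fluoxetine average (limma, adjusted p under 0.05), 13.5% of those tested. The members ranked from 1 for Cbfa2t3 to 47 for Slit1 by p-value, which describes the choice and is no further result.

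With all libraries, the smallest fluoxetine differences were in HT females for 7 members and in WT males for the other 3, but without HT fluoxetine female replicates 3 to 5 the count was 5 and 5. Tnfrsf25 had a log2 difference of 0.00 ± 0.230 in HT females, -0.96 in HT males, -1.72 in WT females and -1.03 in WT males, with that standard error in each stratum. Without those 3 libraries Tnfrsf25 had -0.89 ± 0.242 in HT females, near its value in HT males. Such a likeness is favoured by the way the 3 libraries were picked. Cbfa2t3 had -0.33 ± 0.109 in HT females, -0.68 in HT males, -0.84 in WT females and -0.49 in WT males, and without the 3 libraries its HT female value was -0.71 ± 0.121. Lcmt2 had 0.06 ± 0.101 in HT females, against 0.41 in HT males, 0.58 in WT females and 0.57 in WT males, and 0.31 ± 0.127 in HT females without the 3. Of the others, Zfp366 had -0.24 with and -0.57 without them in HT females, Lrrc29 0.45 and 1.07, and Atp10d 0.09 and 0.32, while Gadd45a had -0.18 and -0.20. Fam53b, Nrde2 and Slit1 had their smallest difference in WT males with or without the 3 libraries, at -0.20 ± 0.102, 0.23 ± 0.075 and 0.22 ± 0.115, and Cbfa2t3 and Lrrc29 joined them without the 3.

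**Figure D3:**
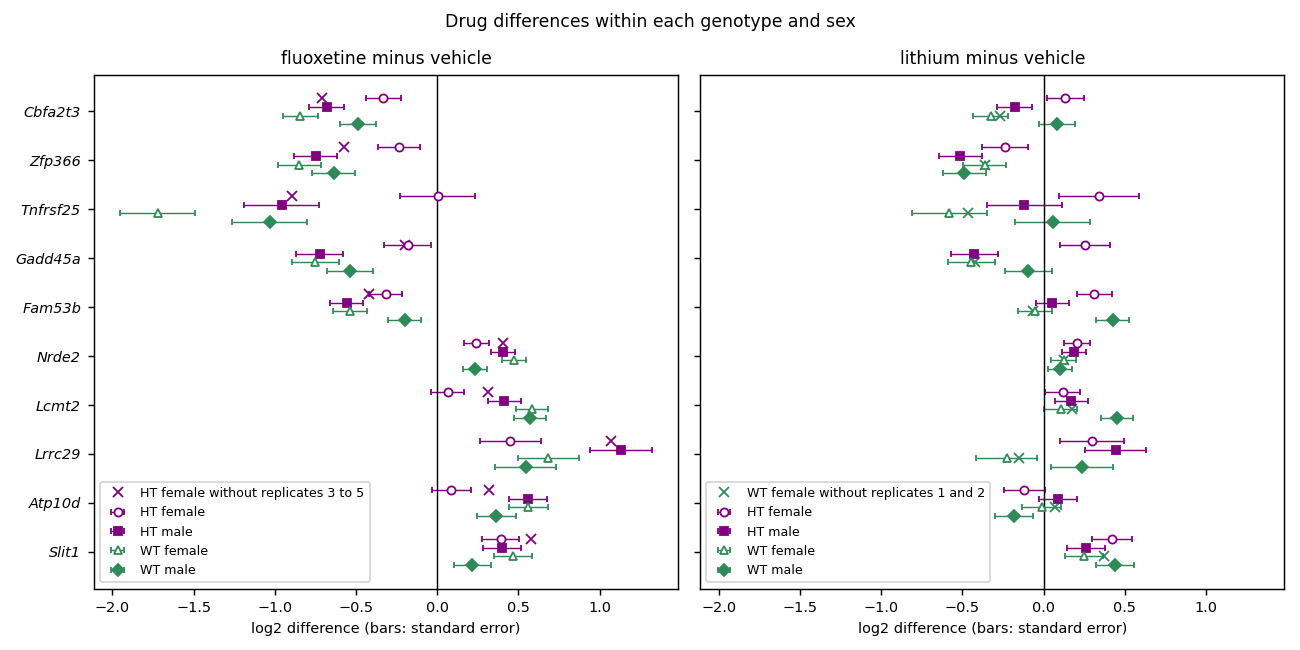
Log2 difference from vehicle (x axis) of each member (y axis) under fluoxetine, left, and lithium, right, in HT females, HT males, WT females and WT males; points are fitted differences, bars standard errors, and crosses the HT female value without fluoxetine replicates 3 to 5 or the WT female value without lithium replicates 1 and 2. Under fluoxetine Tnfrsf25 lies at 0.00 in HT females with all libraries, at -0.89 without the 3, and at -1.72 in WT females.

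Whether the fluoxetine difference depended on genotype was tested over all genes. For Tnfrsf25 the difference in HT minus that in WT mice was 0.90 ± 0.230 on the log2 scale, and for Lcmt2 it was -0.34 ± 0.101. Neither passed (limma, adjusted p = 0.112 and 0.148), nor did any other member, where 0.0392% of all genes did. At an unadjusted p under 0.05 the count was 2 members by limma, 3 by edgeR and 3 by DESeq2, and each tool passed 0 after adjustment. Without HT fluoxetine female replicates 3 to 5 the value was 0.45 for Tnfrsf25 (adjusted p = 0.79) and -0.22 for Lcmt2 (adjusted p = 0.794). The Tnfrsf25 value passed when HT fluoxetine female replicate 1 was left out (1.03, adjusted p = 0.0203), and likewise replicate 2 (0.99, adjusted p = 0.0423) or WT vehicle male replicate 2 (0.94, adjusted p = 0.0358). For dependence on sex no member passed by any of these tools or had an unadjusted p under 0.05, against 0.425% of all genes past the adjusted threshold by limma.

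Lithium was then compared with vehicle, a contrast that did not choose the members but uses the same 20 vehicle libraries. A vehicle mean that is high or low by accident shifts both drug differences the same way. Lithium calls in the fluoxetine direction are therefore favoured by the choice, and the share of all genes is not an even standard for the members. Of the 10 members, 5 passed the adjusted threshold, and 13.1% of all tested genes did (limma, edgeR and DESeq2 named the same 5 members). Zfp366 fell by 0.40 on the log2 scale (± 0.067, limma, adjusted p = 3.63e-05), and 19 of 19 lithium libraries lay below the vehicle mean of their stratum. Slit1 rose by 0.34 ± 0.058 (adjusted p = 4.94e-05), with 18 of 19 libraries above. Lcmt2 rose by 0.21 ± 0.051 (adjusted p = 0.00374) with 16 of 19 above, and Nrde2 by 0.15 ± 0.038 (adjusted p = 0.00436) with 18 of 19 above. Under fluoxetine the averages of these 4 were -0.62, 0.37, 0.41 and 0.34.

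Fam53b was the member called in the other direction. It rose by 0.18 ± 0.052 under lithium (limma, adjusted p = 0.0122), with 14 of 19 lithium libraries above the vehicle mean of their stratum, and lay 0.40 lower on the log2 scale under fluoxetine with 20 of 20 libraries below. The lithium difference was 0.31 ± 0.109 in HT females and 0.43 ± 0.102 in WT males, against 0.05 ± 0.102 in HT males and -0.05 ± 0.102 in WT females. The value was 0.15 and did not pass (adjusted p = 0.0534) when a replicate block and a correction for GC content and length were fitted together.

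The other 5 members did not pass under lithium. Gadd45a had -0.18 ± 0.073 (limma, adjusted p = 0.0997) and passed without WT lithium male replicate 3 (-0.21, adjusted p = 0.0421). Its libraries under lithium were 229, 177, 178 and 163 in HT females, 141, 108, 110.2, 127 and 113 in HT males, 130.5, 112, 124, 124 and 126 in WT females and 148, 106, 210.5, 180.1 and 119 in WT males, highest in HT females. Lrrc29 had 0.19 ± 0.096 (adjusted p = 0.192), Cbfa2t3 -0.07 ± 0.055 (adjusted p = 0.427), Atp10d -0.06 ± 0.060 (adjusted p = 0.591) and Tnfrsf25 -0.07 ± 0.117 (adjusted p = 0.732). A p-value above the threshold does not show that lithium left them as under vehicle, and for Atp10d and Tnfrsf25 the standard error was larger than the difference.

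Without WT lithium female replicates 1 and 2, the same 5 members passed, with Slit1 at 0.37 and Zfp366 at -0.40, and no member's average moved by more than 0.0312. Within strata, 3 members had lithium and vehicle groups that did not overlap in HT females (Nrde2, Lrrc29 and Slit1, higher; 7.52% of all genes). In HT males 1 did (Zfp366, lower; 3.44%), in WT females 3 (Cbfa2t3, Zfp366 and Tnfrsf25, lower; 6.25%), and in WT males 3 (Lcmt2 and Slit1, higher, and Zfp366, lower; 2.1%). Cbfa2t3 and Tnfrsf25 thus lay below vehicle under lithium in WT females, by 0.32 ± 0.109 and 0.58 ± 0.230 on the log2 scale, while Tnfrsf25 had 0.34 ± 0.244 in HT females. Without WT lithium female replicates 1 and 2 the WT female differences were -0.27 ± 0.127 for Cbfa2t3 and -0.46 ± 0.266 for Tnfrsf25, and 4 members stood clear of vehicle there, the same 3 and Slit1, higher, at 0.37 against 0.25 with all libraries (10.7% of all genes). Atp10d changed sign, at 0.07 without the 2 libraries and -0.01 with them. No member passed for a dependence of the lithium difference on genotype or on sex, by limma, edgeR or DESeq2, and none had an unadjusted p under 0.05. By limma 0% of all genes passed in either comparison, with 1700 and 1041 genes at an unadjusted p under 0.05; edgeR passed 0 and 0, and DESeq2 5 and 2.

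**Figure D4:**
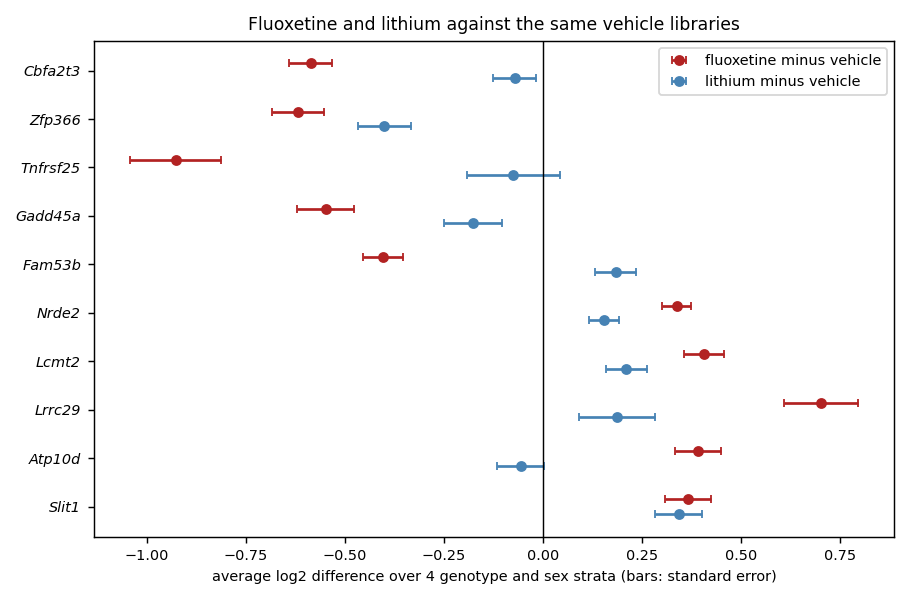
Average log2 difference from vehicle over 4 genotype and sex strata (x axis) for each member (y axis), fluoxetine above lithium in each row; bars are standard errors, and both drugs are set against the same vehicle libraries. Slit1 lies at 0.37 and 0.34, Zfp366 at -0.62 and -0.40, and Fam53b on opposite sides of 0.

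Set directly against each other with all libraries, fluoxetine and lithium differed most in Tnfrsf25 and Fam53b, with Cbfa2t3 and Lrrc29 next and alike in size. They differed least in Slit1. This comparison shares its fluoxetine libraries with the one that chose the members and is a description. The average of fluoxetine minus lithium was -0.85 ± 0.117 for Tnfrsf25, -0.59 ± 0.052 for Fam53b, -0.515 ± 0.055 for Cbfa2t3 and -0.37 ± 0.073 for Gadd45a. It was 0.51 ± 0.096 for Lrrc29, 0.45 ± 0.060 for Atp10d, 0.20 ± 0.051 for Lcmt2 and 0.18 ± 0.038 for Nrde2. Zfp366 had -0.22 ± 0.067 and Slit1 0.02 ± 0.058. Without HT fluoxetine female replicates 3 to 5 it was -1.08 for Tnfrsf25, 0.67 for Lrrc29, -0.61 for both Fam53b and Cbfa2t3, -0.30 for Zfp366 and 0.07 for Slit1. Lrrc29 then came after Tnfrsf25 in size, ahead of Fam53b. Without WT lithium female replicates 1 and 2 Slit1 had -0.01. The fluoxetine and lithium groups did not overlap for 9 members in WT females (4.91% of all genes), 6 in HT males (4.59%), 3 in WT males (4.09%) and 2 in HT females (6.74%). Without the libraries that stood apart the count was 9 in WT females (8.76%) and 9 in HT females (24.6%).

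Genotype and sex had no called effect on any member. Averaged over drugs and sexes, HT minus WT was 0.14 ± 0.045 for Cbfa2t3, -0.14 ± 0.049 for Atp10d and 0.11 ± 0.042 for Fam53b (limma, adjusted p = 0.203, 0.275 and 0.429). The background was 0.358% of all genes, and 3 members had an unadjusted p under 0.05 by limma, 4 by edgeR and 4 by DESeq2. Without HT fluoxetine female replicates 3 to 5 the 3 values were 0.08, -0.11 and 0.09 (adjusted p = 0.852, 0.784 and 0.817). Between females and males 0 members passed by any of these tools, 3 had an unadjusted p under 0.05 by each, and 0.117% of all genes passed by limma.

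Within groups the members varied together along the direction of their fluoxetine difference. Deviations from the group mean were correlated over the 59 libraries as a description, since the points share library depth, tissue makeup and the libraries that stood apart. All 10 pairs of genes lower under fluoxetine had a Pearson r above 0 (0.003 to 0.592, median 0.326), as had all 10 pairs of genes higher under it (0.145 to 0.484, median 0.372). Pairs with 1 gene of each kind had a median of -0.299, from -0.617 for Zfp366 and Slit1 to 0.031, and 3 of 25 were above 0. Without the HT fluoxetine female group the 3 medians were 0.241, 0.276 and -0.215. The members were chosen and sorted by their fluoxetine difference, and its strength also varied within the groups kept. The slope given above was 0.146 to 0.874 in HT fluoxetine males. The signs of these correlations are therefore favoured by the choice, and no background of other gene pairs is given. Gadd45a was the loosest member of the lower kind, with r of 0.45 to Cbfa2t3 and 0.00 to Zfp366.

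**Figure D5:**
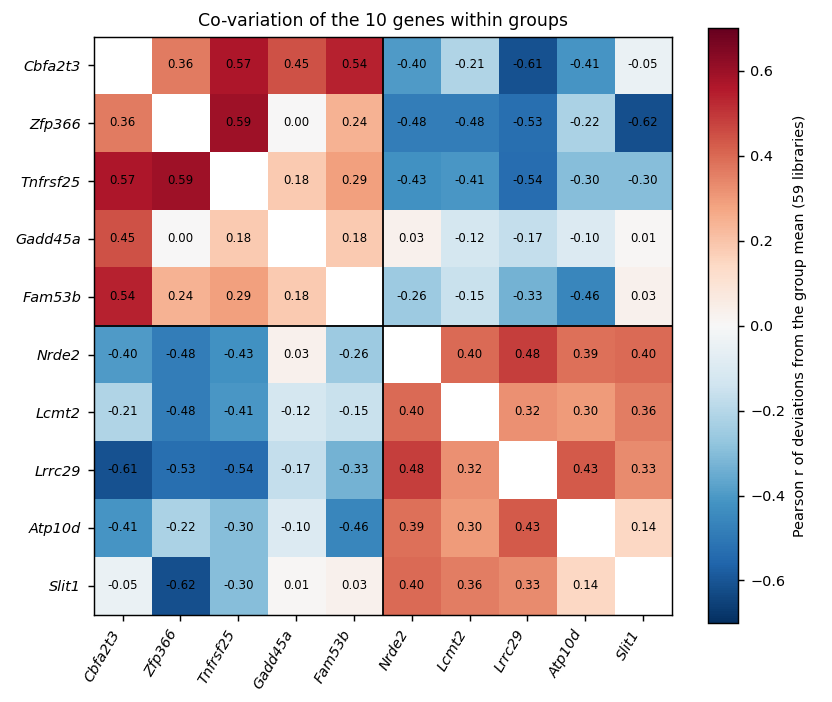
Pearson r of deviations from the group mean over 59 libraries for each pair of members, with red above 0 and blue below; the black lines part the 5 genes lower under fluoxetine from the 5 higher. The 2 blocks on the diagonal are positive throughout and most of the others are negative.

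Of 12742 genes searched for the nearest pattern within groups, 3 are named for each member. Cbfa2t3 was nearest to Pdgfb (r = 0.73), Bcor and Per2, and Tnfrsf25 to Dok3 (0.713), Per2 and Tpcn1. Zfp366 was nearest to Arap3, Rasgrp3 and E2f6 (0.654 to 0.634), and Fam53b to Sntb2, Jade2 and Map2k3 (0.693 to 0.656). Slit1 was nearest to Ptk2b, Unc5a and Kcnab2 (0.741 to 0.731), and Lrrc29 to Hif3a, Cirbp and Pskh1 (0.662 to 0.61). Atp10d was nearest to Sugp1, Nupl2 and Hif3a (0.615 to 0.578), and Nrde2 to Zscan25, Ccdc71 and Sugp1 (0.581 to 0.574). The likeness was lower for Gadd45a, with Paqr4, Rell1 and Snx3 (0.523 to 0.513), and for Lcmt2, with Vps52, Magee1 and Bend5 (0.51 to 0.483). Without the HT fluoxetine female group, r with the first gene named was 0.607 for Cbfa2t3, 0.638 for Tnfrsf25 and 0.578 for Zfp366. It was 0.7 for Fam53b, 0.729 for Slit1, 0.578 for Lrrc29, 0.564 for Atp10d, 0.624 for Nrde2, 0.555 for Gadd45a and 0.534 for Lcmt2. With Per2 it was 0.534 for Cbfa2t3 and 0.441 for Tnfrsf25, against 0.699 and 0.65 with all libraries.

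Most of the endothelial markers listed were lower under both drugs. Of 9 endothelial markers, 6 fell and 0 rose under fluoxetine (median log2 difference -0.221), and 6 fell and 1 rose under lithium (median -0.192). Over all tested genes 6.6% fell and 6.94% rose under fluoxetine, and 5.74% fell and 7.39% rose under lithium. The fluoxetine counts were the same without HT fluoxetine female replicates 3 to 5, and 5 fell under lithium without 2 vehicle libraries, replicate 3 of the WT females and replicate 2 of the WT males. Flt1, a receptor for vascular endothelial growth factor, fell by 0.35 under fluoxetine (limma, adjusted p = 6.37e-07) and by 0.15 under lithium (adjusted p = 0.0249). The summed count of the 9 was 7099 to 9168 under fluoxetine, 7748 to 9182 under lithium and 8192 to 13750 under vehicle, and the lowest of the 9, Tek, averaged 487 over all libraries. Within groups that sum had a Pearson r of 0.495 with Zfp366, 0.378 with Tnfrsf25 and -0.533 with Slit1 over 59 libraries. The part of vessel content in these genes' differences was not tested. For dendritic and other blood cells, 7 of 9 markers were tested, of which 1 fell and 0 rose under fluoxetine. Under lithium 0 passed by limma, edgeR or DESeq2, with 1 at an unadjusted p under 0.05 by each. Their summed count was 3563 to 11470 under fluoxetine, 3872 to 13710 under lithium and 3933 to 12640 under vehicle. The lowest of these genes, the dendritic cell gene Cd209a, averaged 5.67. The sum therefore reflects mainly other genes of the list and was not shown to follow dendritic cells. Its r was 0.466 with Zfp366 and -0.327 with Lcmt2, and between -0.17 and 0.166 with the other members. Of 8 astrocyte markers, 3 fell under each drug and 0 rose.

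Markers of neighbouring tissue varied widely between libraries. All 10 striatal markers had a log2 difference above 0 under both drugs, with medians of 0.292 under fluoxetine and 0.313 under lithium, but 0 passed by limma under either, with 1 under each at an unadjusted p under 0.05. Under lithium 1 of them rose by edgeR and 1 by DESeq2, and under fluoxetine 0 by edgeR and 1 by DESeq2. Their summed count was 6284 to 19220 under fluoxetine, 5886 to 21750 under lithium and 5813 to 14400 under vehicle, and its r with the members was -0.142 to 0.255. The 6 olfactory bulb markers had a median of -0.01 under fluoxetine and -0.502 under lithium, and the 7 choroid plexus markers 0.07 and -0.26. By limma 0 of either list passed under either drug or had an unadjusted p under 0.05, except 1 choroid plexus marker under lithium; under lithium 1 and 2 olfactory bulb markers fell by edgeR and DESeq2, and 2 choroid plexus markers by each. The summed olfactory bulb count was 3100 to 19160 under fluoxetine, 3535 to 15610 under lithium and 2778 to 22870 under vehicle, with an r of -0.414 to Atp10d and -0.309 to Gadd45a. The choroid plexus sum was 83.2 to 1049 under fluoxetine, 118 to 589.6 under lithium and 95.5 to 7883 under vehicle, with an r of -0.35 to Slit1. The part of these tissues in the members' differences was not tested.

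The calls in the other marker lists stand beside 13.5% of all tested genes called under fluoxetine and 13.1% under lithium by limma. Of 8 oligodendrocyte markers 0 passed under either drug by limma, edgeR or DESeq2, with 0 at an unadjusted p under 0.05. Of 4 oligodendrocyte precursor markers 1 rose and 1 fell under fluoxetine, of 8 microglial markers 1 fell under fluoxetine and 1 rose and 2 fell under lithium, and of 7 inhibitory neuron markers 1 rose under lithium. Of the 10 cortical neuron markers 1 fell under lithium.

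Genes listed with the members, as relatives, pathway genes or partners, moved in both directions under each drug. Of the 127 genes listed, 121 were tested. Under fluoxetine 11 rose (9.09%) and 4 fell (3.31%) with a median log2 difference of 0.03, against 6.94% and 6.6% of all genes. Under lithium 15 rose (12.4%) and 11 fell (9.09%) with a median of 0.00, against 7.39% and 5.74% of all genes. The median over all tested genes was 0.01 under fluoxetine and 0.00 under lithium.

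Among 15 genes of corepressors and factors listed with Cbfa2t3, 2 rose and 1 fell under fluoxetine and 4 fell under lithium. The scaffold gene Sin3a fell by 0.13 under fluoxetine (limma, adjusted p = 0.0101) and by 0.16 under lithium (adjusted p = 0.00237). The deacetylase gene Hdac3 rose by 0.09 under fluoxetine (adjusted p = 0.00343), and Cbfa2t2, of the same gene family as Cbfa2t3, by 0.10 (adjusted p = 0.0285). The third gene of that family, Runx1t1, had -0.13 ± 0.059 under fluoxetine and did not pass (adjusted p = 0.144). Under lithium Tcf12, a helix-loop-helix factor gene, fell by 0.22 and the deacetylase gene Hdac2 by 0.18 (adjusted p = 0.00167 and 0.0032). Of 9 tested genes listed with Zfp366, the glucocorticoid receptor gene Nr3c1 fell by 0.20 under fluoxetine (adjusted p = 0.00403) and by 0.16 under lithium (adjusted p = 0.0229). The retinoid receptor gene Rxra rose by 0.20 under lithium (adjusted p = 0.00264).

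Of 11 tested genes of death receptor signalling, 1 fell under fluoxetine, Tnfrsf21, by 0.12 (limma, adjusted p = 0.0264). Under lithium the initiator caspase Casp8 fell by 0.32 (adjusted p = 0.00195) and the receptor Tnfrsf10b by 0.45 (adjusted p = 0.0077), while the apoptosis inhibitor Birc3 rose by 0.23 (adjusted p = 0.0346). The Tnfrsf25 ligand gene Tnfsf15 was looked for by symbol and not found among the genes measured. Of 19 genes of the Gadd45 and p53 group, Mdm2, which degrades p53, fell by 0.10 under fluoxetine (adjusted p = 0.0284). The relatives Gadd45b and Gadd45g had -0.22 ± 0.094 and 0.18 ± 0.096 under fluoxetine and did not pass (adjusted p = 0.109 and 0.211). Under lithium Sesn2 rose by 0.23 and Map3k4 by 0.11, and the pro-apoptotic Bbc3 fell by 0.28 (adjusted p = 0.00712, 0.0469 and 0.036). Ctnnb1, the gene of beta-catenin and 1 of 4 genes listed with Fam53b, fell by 0.22 under lithium (adjusted p = 6.11e-07) and had 0.02 ± 0.028 under fluoxetine (adjusted p = 0.717).

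Of 15 tested genes of nuclear RNA surveillance listed with Nrde2, 3 rose and 0 fell under fluoxetine: the exosome genes Exosc4 (0.24, limma, adjusted p = 0.000412) and Exosc2 (0.14, adjusted p = 0.0104) and Zfc3h1 (0.14, adjusted p = 0.0143). Exosc4 also rose by 0.15 under lithium (adjusted p = 0.0311), with the splicing factor Eftud2 (0.11, adjusted p = 0.00407). Of 9 genes listed with Lcmt2, Trmt12, the enzyme of an earlier wybutosine step, rose by 0.15 under fluoxetine and 0.25 under lithium (adjusted p = 0.0102 and 1.8e-05). The phosphatase methylesterase gene Ppme1 rose by 0.15 and 0.17 (adjusted p = 0.00495 and 0.00141). Of 17 tested F-box and ubiquitin ligase genes, Fbxl6 (0.17, adjusted p = 0.00991) and Fbxl4 (0.13, adjusted p = 0.0448) rose under fluoxetine, and the scaffold Cul1 fell by 0.11 under lithium (adjusted p = 0.0206).

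Of 12 tested genes of the flippase family of Atp10d, Atp9a rose by 0.21 (limma, adjusted p = 0.00938) and Atp9b by 0.12 (adjusted p = 0.000375) under fluoxetine. Under lithium Atp9b rose by 0.13 (adjusted p = 0.000225), Atp10a by 0.27 (adjusted p = 0.00781) and Atp8a2 by 0.12, and Atp8b1 fell by 0.25 (adjusted p = 0.0472 and 0.0145). Of 12 genes of the Slit and Robo pathway other than Slit1, 0 passed under fluoxetine by limma, edgeR or DESeq2, with 1, 2 and 2 at an unadjusted p under 0.05. Under lithium 4 rose and 0 fell: the receptors Robo3 (0.36, adjusted p = 0.0221) and Robo4 (0.26, adjusted p = 0.00244), the Robo effector Srgap2 (0.12, adjusted p = 0.00208) and the Slit-binding proteoglycan gene Gpc1 (0.14, adjusted p = 0.0309). The other ligands Slit2 and Slit3 had -0.08 ± 0.070 and 0.14 ± 0.077 under fluoxetine and -0.04 ± 0.072 and 0.13 ± 0.078 under lithium, and neither passed.

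Annotated genes overlap 4 members, and the strand setting of the authors' counting is not given in the sources used here, so those counts are uncertain where exons coincide. Fam53b lies inside the annotated span of Fgfr2 on the same strand; Fgfr2 had -0.08 ± 0.078 under fluoxetine (limma, adjusted p = 0.516) and fell by 0.30 under lithium (adjusted p = 0.00913). E230016M11Rik, opposite to Gadd45a over 859 bases, had 0.20 ± 0.083 under fluoxetine (adjusted p = 0.103), and Adal, opposite to Lcmt2 over 226 bases, 0.00 ± 0.044 (adjusted p = 0.999). Cbfa2t3 is spanned by Gm20388 on the opposite strand, which was not analysed here.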

How the data were processed

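Polyadenylated RNA of prefrontal cortex was sequenced from stranded libraries, per the labels' protocols. Salmon 0.11.2, R 3.6.0, DESeq2 1.19.11 and GRCm38 are named in the submitters' processing notes, without roles. The deposited table holds a signal, the read count of a gene divided by the library's size factor. In each library 100% of these values were whole multiples of 1 read within a tolerance of 0.01, so reads were recovered for edgeR 4.0.16 and DESeq2 1.42.0. Since the deposited values are normalised, the main test was limma 3.58.1 in R 4.3.3, on log2(normalised count + 1) with a variance trend and robust fitting, 1 mean per group and all 59 libraries. Fold changes on this scale understate those of low genes. Genes reaching 10 normalised counts in at least 5 libraries were tested, which left out 213, and Benjamini-Hochberg adjustment ran over all 17875 of them, with a threshold of 0.05. Averages weight the strata equally. Gene identifiers gave symbols for 18077 genes, and GENCODE M21 gave positions. The sources used here do not give the annotation and strand setting of the counting.

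The members and the partner and marker lists were chosen with earlier results of these data known. Named partner genes passed in a drug average, at most 4 per list by p-value, with Gadd45b, Gadd45g, Slit2, Slit3, Flt1, Tek, Cd209a, Cbfa2t2, Runx1t1, Atp8a2 and overlapping genes added after their values were seen. Likeness was searched among named genes averaging at least 50 normalised counts. Alternatives were a pseudocount of 10, no filter, edgeR, DESeq2, only the groups compared, removal of a GC content and length trend, a replicate block, and libraries left out singly or together. The test was tried on simulated data first.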

Additional observations from a re-analysis of the deposited data

Results flagged for a closer look

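Within groups of 4 or 5 libraries, 120 member and group combinations were searched for a library far from the others, of which chance flags about 5%, and 5 were flagged. The figure given is the gap to the nearest library as a share of the group's range. Fam53b in HT fluoxetine female replicate 3 had 1036 normalised counts, against 761 to 817 in the other libraries of its group (0.795). It also stood out in HT vehicle female replicate 3, at 1134 against 994 to 1025 (0.778). Nrde2 had 527 in WT fluoxetine male replicate 5, against 382 to 418 (0.749). WT fluoxetine female replicate 3 was flagged for both Slit1, at 2494 against 1958 to 2048 (0.831), and Lcmt2, at 192 against 213 to 221 (0.727).

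Gadd45a was flagged because its lithium libraries lay on opposite sides of vehicle in different strata. The log2 difference was 0.254 in HT females and -0.426 in HT males, 0.68 apart, and -0.444 in WT females, 0.697 from HT females. These pairwise differences were not tested.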

How the results depend on the processing

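The 5 members past the threshold under lithium numbered 4 to 6 over all alternatives. No member's lithium or fluoxetine average changed direction under any of them. Differences within a stratum could change sign, as given above for Atp10d under lithium in WT females. The count of genes past the threshold was 1971 to 2714 for the lithium average and 1928 to 2993 for the fluoxetine average with 1 library left out. For the genotype average, 64 genes became 102 with DESeq2 and 29 without HT fluoxetine female replicates 3 to 5. For the sex average, 21 became 44 with DESeq2 and 19 to 38 with 1 library left out, the highest without HT fluoxetine male replicate 2.

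For fluoxetine by genotype, 7 became 4 with edgeR, 88 with DESeq2, 1 with only the groups compared, and 77 without 2 vehicle libraries, replicate 3 of the WT females and replicate 2 of the WT males. It became 0 after removal of a trend with GC content and length, with or without a replicate block, 0 without HT fluoxetine female replicates 3 to 5, and 4 without WT lithium female replicates 1 and 2. With 1 library left out it ran from 0, for example without HT fluoxetine female replicate 3, to 207 without WT vehicle male replicate 2. For fluoxetine by sex, 76 became 176 with DESeq2, 25 with only the groups compared, 27 without the same 2 vehicle libraries, and 5 after removal of the trend with GC content and length. It became 1 with that trend removed and a replicate block, 1 without HT fluoxetine female replicates 3 to 5, and 36 without HT vehicle male replicate 5 to 121 without WT vehicle male replicate 5. For lithium by genotype and by sex, 0 became 5 and 2 with DESeq2. The cause of these moves was not tested.

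Libraries with the same number did not deviate together on average (mean r -0.0112 over 319 pairs, against 0.0028 over 1276 pairs with different numbers). No pairing by number was seen, but a mean over all pairs cannot exclude pairing within some groups. A replicate block alone gave 2371 genes for the lithium average and 5 for fluoxetine by genotype, and the same 5 member calls under lithium. Across genes, the log2 difference had a Spearman rho with GC content of 0.235 for fluoxetine and 0.204 for lithium. Depth limits Lrrc29 most, with as few as 19 reads in a library. The alternatives without HT fluoxetine female replicates 3 to 5 and without WT lithium female replicates 1 and 2 were chosen after seeing the data.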
